A study of Mus musculus with 6 samples.

Results

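The genes described here are 10 of the 30406 genes listed for every library of a study of adrenal nuclei: the granins and granule proteins Chga, Chgb, Scg2, Scg3, Scg5, Vgf and Resp18, and the neuropeptide precursors Npy, Penk and Gal. They were taken by symbol, and all 10 symbols were found in each library. RNA was measured in single adrenal nuclei of female C57BL/6 J mice aged 10 to 11 months, 1 pair of frozen glands per library, sorted on the DNA stain DAPI and made into droplet-based 3′ libraries. The mice were wild type (WT, 3 libraries) or carried a knockout (KO, 2 libraries) of Tmem127, which encodes a membrane protein of endosomes and lysosomes and is mutated in some human phaeochromocytomas, tumours of the chromaffin cells. The labels give neither the deleted part of Tmem127 nor whether the deletion is limited to a cell type. A further library carries contradictory labels, WT in its title and KO as its genotype. It is called the unassigned library below, and its values are given apart from both groups.

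Granins are acidic proteins that aggregate in the trans-Golgi network and help to form the dense cores of secretory granules, where they are stored with catecholamines, ATP and peptide hormones. Most are also precursors: prohormone convertases cut them at pairs of basic residues into shorter peptides, and carboxypeptidase E and the amidating enzyme Pam trim the ends. In the adrenal medulla, chromaffin cells release the content of these granules into the blood when splanchnic nerve endings stimulate them. Adrenaline-making chromaffin cells express Pnmt, the enzyme that methylates noradrenaline, and noradrenaline-making cells lack it.

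After filtering, 21035 nuclei remained, KO libraries giving 3225 and 2802, WT libraries 4476, 3286 and 3534 and the unassigned library 3712. The libraries held between 4825169 and 43377724 unique molecular identifiers (UMIs, 1 per captured RNA molecule), with medians per barcode between 1289 and 7675. KO replicate 2 was the shallowest library and WT replicate 1 the deepest. Pairs of libraries shared between 2 and 9 cell barcodes. Chromaffin-like nuclei, 1447 in all, were the nuclei of 2 clusters in each of which 15 of 16 chromaffin markers passed; the 10 genes and their pathway lists, 75 genes in all, were kept out of both the markers and the genes used for clustering. They numbered 244 and 257 in KO, 286, 221 and 177 in WT, with 262 in the unassigned library. In them Tmem127 stood at 37.7 and 46.0 counts per 1000000 UMIs (CPM) in KO, at 27.1, 22.8 and 26.3 in WT and at 20.5 in the unassigned library, and since the deleted part is not given this level checks no label. Levels below are CPM of the summed UMIs of the nuclei named, and each library is 1 sample. The labels do not tie the libraries of a group to separate litters or days, so p-values measure the spread between these libraries.

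The start regions of the granin genes are shown first because 5 of them carry the recognition core of CREB, the transcription factor through which cyclic AMP acts, and granin genes are known targets of cyclic AMP signalling. Of the 10 genes, 8 matched an entry of the RefSeq promoter table (build GRCm38.p6), which holds 300 bases around each start for 32544 windows. Each line below gives 30 bases, 5′ to 3′ on the strand of the gene, with the full cyclic AMP response element TGACGTCA, or its core TGACG, in capitals.
Chgb: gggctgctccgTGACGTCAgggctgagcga
Scg2: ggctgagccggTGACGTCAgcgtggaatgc
Chga: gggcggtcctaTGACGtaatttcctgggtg
Scg3: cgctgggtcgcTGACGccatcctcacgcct
Scg5: aaggaggtaaaTGACGttcataggggtcga
The full element of Chgb (shown at chr2:132781559-132781588, plus strand) begins 72 bases before the RefSeq start, and that of Scg2 (chr1:79440076-79440105, minus strand) begins 68 bases before it. Both stretches lie inside the longer gene models of the GENCODE annotation. The cores of Chga (chr12:102554886-102554915, plus strand), Scg3 (chr9:75684068-75684097, minus strand) and Scg5 (chr2:113829248-113829277, minus strand) begin 44, 30 and 175 bases before the start. Searched on both strands, TGACGTCA occurred in 1.8% of the 32544 windows and TGACG, which also occurs inside the full element, in 20.9%. These shares count either strand and the whole window, while the 5 sites shown lie before the start on the strand of the gene. Counted as for the shares, Gal also had TGACG, only after its start. Scg5 had further matches of TGACG 19 and 40 bases after its start. No match was found in the windows of Npy and Resp18. These matches describe letters in the windows and were not tested for binding.

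In GENCODE M21 (GRCm38, the mm10 build of the submitters' processing notes) Chga (ENSMUSG00000021194) lies at chr12:102554969-102565028 and Chgb (ENSMUSG00000027350) at chr2:132781278-132795079, both on the plus strand. Scg2 (ENSMUSG00000050711) lies at chr1:79434669-79440120, Scg3 (ENSMUSG00000032181) at chr9:75643189-75684056 and Scg5 (ENSMUSG00000023236) at chr2:113776362-113829121, all on the minus strand. Vgf (ENSMUSG00000037428) lies at chr5:137026392-137033351 on the plus strand and Resp18 (ENSMUSG00000033061) at chr1:75272199-75278415 on the minus strand. Npy (ENSMUSG00000029819) lies at chr6:49822710-49829507 on the plus strand, Penk (ENSMUSG00000045573) at chr4:4133531-4138819 and Gal (ENSMUSG00000024907) at chr19:3409915-3414544, both on the minus strand. Gm37871, Gm28902 and A830012C17Rik overlap Scg3, Resp18 and Penk on the opposite strand. The sources used here do not say how the counting treated strand, so reads of these 3 genes and their partners may not be told apart.

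Where in the gland the 10 genes were measured was asked by comparing chromaffin-like nuclei with all other nuclei of the same library. All but Penk were higher in chromaffin-like nuclei, by 33.6-fold (Scg5) to 99.7-fold (Scg3). The count was 9 of 10 genes, while 28.0% of the 14382 genes tested were higher and 31.7% lower in this comparison (59.7% in either direction). The median log2 fold was 5.68 over the 10 genes and -0.05 over all genes tested. The clusters were formed from other genes of the same nuclei, so many genes differ between them by construction.

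Chromogranin A and B, encoded by Chga and Chgb, are the main granins of chromaffin granules. Chga stood at 1788 and 1405 CPM in KO, at 1791, 1439 and 1349 in WT and at 1843 in the unassigned library. The 6 libraries lay close together, with KO and WT mixed. Chgb ranged more widely, at 1484 and 2307 CPM in KO, at 1563, 2329 and 1127 in WT and at 2320 in the unassigned library. KO replicate 2, WT replicate 2 and the unassigned library were the high ones, and KO and WT overlapped. The log2 folds over all other nuclei were 5.99 ± 0.24 (SE) for Chga and 6.37 ± 0.15 for Chgb, with adjusted p = 4.0e-09 and 9.0e-11 by edgeR's quasi-likelihood test (n = 5 libraries).

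Secretogranin II (Scg2) is the precursor of secretoneurin. It stood at 420 and 360 CPM in KO, at 355, 213 and 202 in WT and at 317 in the unassigned library, so both KO libraries lay above the 3 WT libraries, WT replicate 1 only just. Secretogranin III (Scg3), which binds chromogranin A to the cholesterol-rich granule membrane, stood at 67.4 and 47.5 CPM in KO, at 58.1, 41.4 and 46.3 in WT and at 48.3 in the unassigned library. Scg5 encodes 7B2, the chaperone of the convertase Pcsk2, and had the smallest ratio of its highest to its lowest library among the 10, at 247 and 223 CPM in KO, at 202, 215 and 185 in WT and at 190 in the unassigned library. Scg3 and Scg5 thus spread less over the libraries than Scg2. Their log2 folds over all other nuclei were 5.56 ± 0.14, 6.64 ± 0.18 and 5.07 ± 0.11.

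Vgf, a granin-related precursor induced by neurotrophins, was low and uneven. It stood at 13.6 and 67.6 CPM in KO, at 9.0, 23.8 and 17.0 in WT and at 76.1 in the unassigned library. KO replicate 2 and the unassigned library were far above the others. Resp18, a small protein of the regulated secretory pathway, was even across libraries, at 48.2 and 51.8 CPM in KO, at 37.1, 37.3 and 41.2 in WT and at 50.3 in the unassigned library. The log2 folds over other nuclei were 5.30 ± 0.31 for Vgf and 6.01 ± 0.16 for Resp18.

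Among the neuropeptides, neuropeptide Y (Npy), a vasoconstrictor co-released with catecholamines, stood at 240 and 841 CPM in KO, at 299, 555 and 317 in WT and at 839 in the unassigned library. Galanin (Gal) stood at 14.0 and 48.9 CPM in KO, at 15.8, 16.6 and 16.0 in WT and at 34.9 in the unassigned library. In both genes KO replicate 2 and the unassigned library were the high ones, and KO replicate 1 lay below the 3 WT libraries. The log2 folds over other nuclei were 5.81 ± 0.22 for Npy and 5.46 ± 0.28 for Gal. Penk, the precursor of the enkephalins, was nearly silent, at 3.6 and 0 CPM in KO, at 0.9, 7.2 and 0 in WT and at 2.7 in the unassigned library, from 9, 0, 4, 7, 0 and 8 UMIs. Its log2 fold over other nuclei was 1.32 ± 0.76 (adjusted p = 0.16 by edgeR's quasi-likelihood test).

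**Figure D1:**
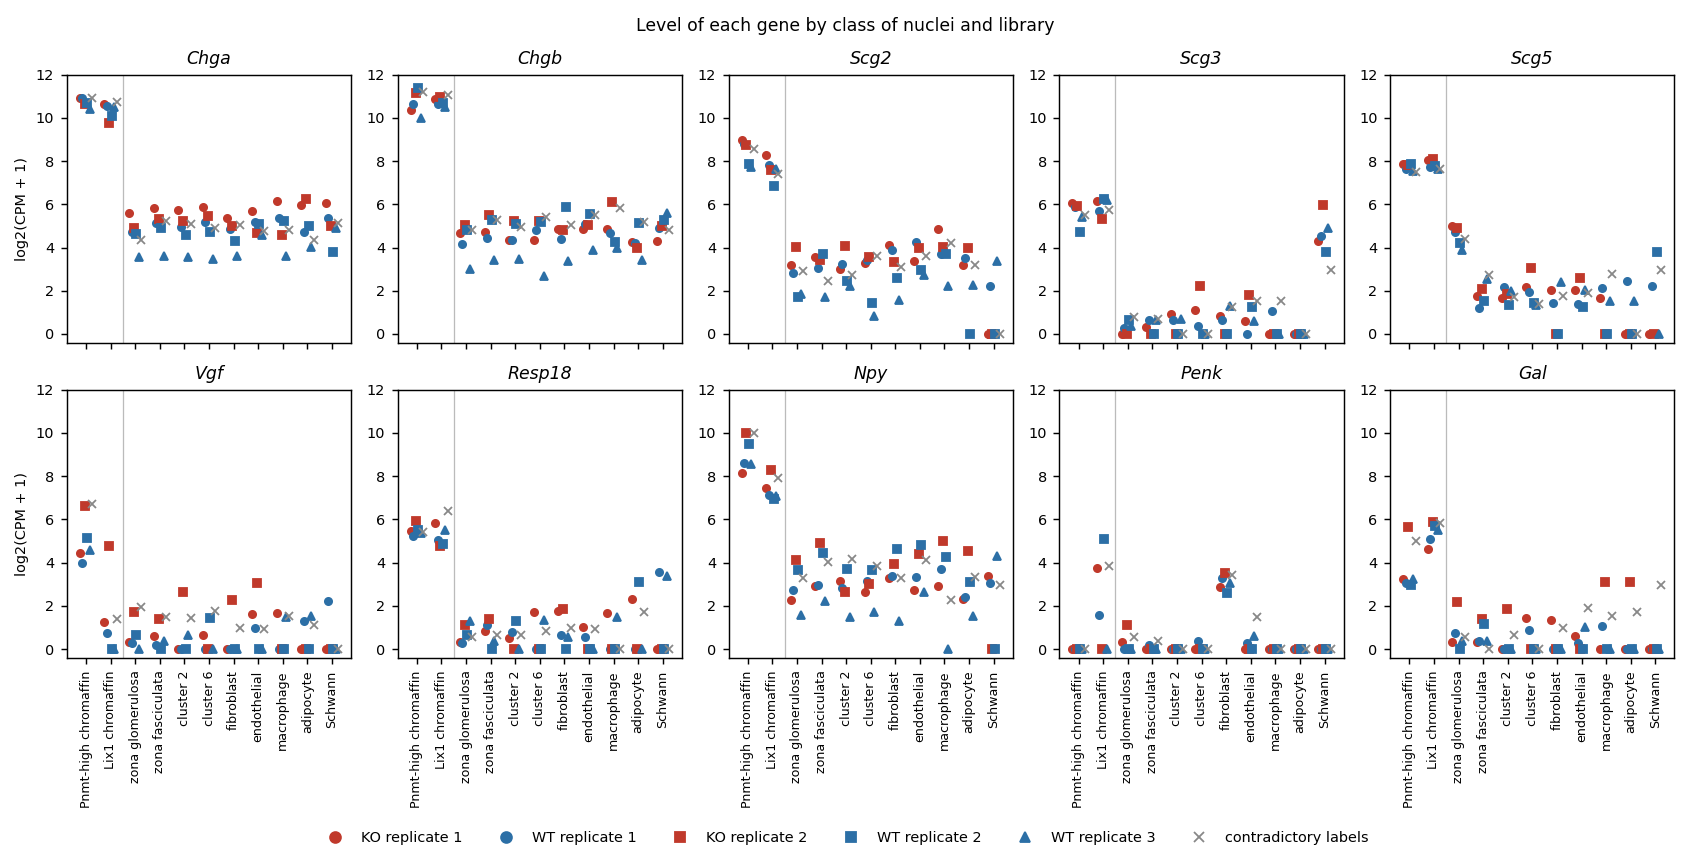
Level of each of the 10 genes, as log2(CPM + 1), in the 2 largest chromaffin sub-clusters (left of the grey line) and 9 other classes of nuclei; each point is 1 library (red KO, blue WT, grey cross the unassigned library). By their means all but Penk stand highest in chromaffin nuclei; Scg5 is also raised in zona glomerulosa nuclei, Scg3 in Schwann nuclei and Penk in fibroblast nuclei.

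The share of nuclei with a UMI was set beside that in a cortical class. After each nucleus was thinned to 1000 UMIs (54 of 1185 chromaffin-like nuclei of the KO and WT libraries had fewer and were left out), 72.6% ± 5.88 (SD, n = 5) held Chga, against 3.34% ± 1.77 of zona fasciculata-like nuclei, the cortical cells that make glucocorticoids and should lack the gene. For Chgb the shares were 69.6% ± 10.6 and 3.62% ± 2.53, for Npy 29.7% ± 13.9 and 1.56% ± 1.13, and for Scg2 26.1% ± 8.39 and 1.28% ± 0.758. Scg5 was found in 19.2% ± 2.96 of thinned chromaffin-like nuclei, Scg3 in 5.43% ± 1.93, Resp18 in 5.31% ± 1.28, Vgf in 2.66% ± 2.15 and Gal in 1.995% ± 1.36, each against 0% to 0.383% of zona fasciculata-like nuclei. No thinned nucleus of either class held Penk. Without thinning, 95.02% of chromaffin-like nuclei held Chga, against 21.1% of zona fasciculata-like nuclei, with median depths by library of 2299 to 14846 and 1599 to 14319 UMIs. The share in zona fasciculata-like nuclei was read as background.

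Outside chromaffin-like nuclei the abundant genes among the 10 stood at a low share of their chromaffin level. Over the 10 other classes with at least 300 nuclei, Chga stood at 1.49% to 2.30% of its chromaffin-like level, Chgb at 1.11% to 1.83%, Npy at 1.51% to 2.73% and Scg2 at 1.80% to 4.12%. The catecholamine enzymes Th, Dbh and Pnmt, which the cortex and vessels should lack, stood at 1.83% to 3.06%, 1.12% to 2.14% and 1.58% to 3.80% in the same classes. The 4 genes lay within the range of these enzymes, with 2 exceptions. Scg2 in macrophage-like (4.12%) and endothelial-like nuclei (3.87%) lay above it, and Chgb in adipocyte-like nuclei (1.11%) just below. Other genes of chromaffin-like nuclei reached lower shares in these classes. Slc18a1 stood at 0.480% to 0.794%, Snap25 at 0.632% to 1.06% and Chrna3 at 0.560% to 1.99%. The share outside chromaffin-like nuclei thus differed between genes, and its source was not tested. The higher maxima of Vgf (7.06%), Gal (5.11%) and Resp18 (4.599%) rest on 11, 2 and 4 UMIs over 5 libraries. Scg5 and Penk went far beyond the range of Th, Dbh and Pnmt, with maxima of 11.2% and 405%, and are described next with Scg3. The comparisons of 1 class with all other non-chromaffin nuclei were added after these levels had been seen. In endothelial-like nuclei, where the median depth by library was 854 to 3455 UMIs, Chga, Chgb, Npy and Scg2 were higher than in other non-chromaffin nuclei by log2 0.43 ± 0.17, 0.55 ± 0.14, 0.65 ± 0.22 and 0.79 ± 0.25 (edgeR's quasi-likelihood test, 28.8% of genes higher), and Pnmt also had its highest share there. Without WT replicate 1 none of the 4 passed (adjusted p = 0.0744 for Chgb, 0.078 for Npy, 0.15 for Chga and 0.27 for Scg2 by the same test), and Chga and Npy also failed without WT replicate 2 (0.0973 and 0.0928) or WT replicate 3 (0.246 and 0.0741). The part of depth in this was not tested.

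Scg5 was raised in zona glomerulosa-like nuclei, a class named after the outer cortical cells that make aldosterone. There it stood at 31.2 and 28.9 CPM in KO, at 24.96, 17.8 and 13.6 in WT and at 20.2 in the unassigned library, against 1.3 to 5.6 CPM in zona fasciculata-like nuclei of the 6 libraries. The 2 classes did not overlap. The difference from all other non-chromaffin nuclei was 9.88-fold (log2 3.31 ± 0.25, adjusted p = 3.0e-07 by edgeR's quasi-likelihood test, n = 5), in a comparison in which 24.3% of genes were higher. Within the class, the cluster led by Cyp11b2, the aldosterone synthase gene, stood at 42.6 and 41.3 CPM in KO, at 38.0, 25.5 and 17.7 in WT and at 24.98 in the unassigned library, while the other cluster stood at 21.0 and 16.3, then 9.0, 3.3 and 5.8, then 11.9. In each of the 6 libraries the Cyp11b2 cluster had the higher level. That cluster (1698 nuclei) passed 9 of 10 zona glomerulosa markers, and the other (1533 nuclei) passed 5. After thinning, 2.29% ± 1.11 of zona glomerulosa-like nuclei held Scg5, against 0.383% ± 0.293 of zona fasciculata-like nuclei (SD, n = 5). The thinned shares of Chga and Chgb were 3.34% and 2.64% in zona glomerulosa-like nuclei, against 3.34% and 3.62% in zona fasciculata-like nuclei.

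Scg3 was raised in the 175 nuclei called Schwann or sustentacular-like, the glia of the medulla and its nerves. It stood at 18.9 and 62.2 CPM in KO, at 22.0, 12.7 and 28.6 in WT and at 6.8 in the unassigned library. These values rest on 2, 2, 6, 1, 3 and 1 UMIs. The log2 fold over other non-chromaffin nuclei was 5.66 ± 0.77 (adjusted p = 2.5e-12 by edgeR's quasi-likelihood test, n = 5), where 11.4% of genes were higher. In the same nuclei Chga, at 35.8 ± 19.7 CPM (SD, n = 5), stood close to its level in zona fasciculata-like nuclei, 33.9 ± 16.4. Resp18 also passed there (log2 3.17 ± 1.12, adjusted p = 0.0201 by the same test), on 4 UMIs in 2 libraries.

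Penk was measured mainly outside chromaffin-like nuclei, which held 28 of its 140 UMIs in the 6 libraries, against 71 in capsule or fibroblast-like nuclei. In the latter it stood at 6.3 and 10.4 CPM in KO, at 8.9, 5.1 and 7.3 in WT and at 9.9 in the unassigned library, from 8, 8, 16, 3, 15 and 21 UMIs. All 6 libraries held it. The log2 fold over other non-chromaffin nuclei was 5.00 ± 0.48 (adjusted p = 3.1e-06 by edgeR's quasi-likelihood test, n = 5), where 22.6% of genes were higher. A small cluster of this class (145 nuclei) held 25 Penk UMIs in all, 6, 3, 1, 0, 3 and 12 by library. It stood at 81.4 and 212 CPM in KO, at 21.4, 0 and 33.0 in WT and at 71.2 in the unassigned library. The 212 CPM of KO replicate 2 rests on 3 UMIs, with 95% counting limits of 43.6 to 618 CPM. A cluster led by the mural genes Pdgfrb, Myh11 and Abcc9 was also higher (log2 2.81 ± 0.84, adjusted p = 0.0086 by the same test, 13.3% of genes higher), from 3, 0, 5, 0, 1 and 10 UMIs, so 2 of its 6 libraries held none.

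**Figure D2:**
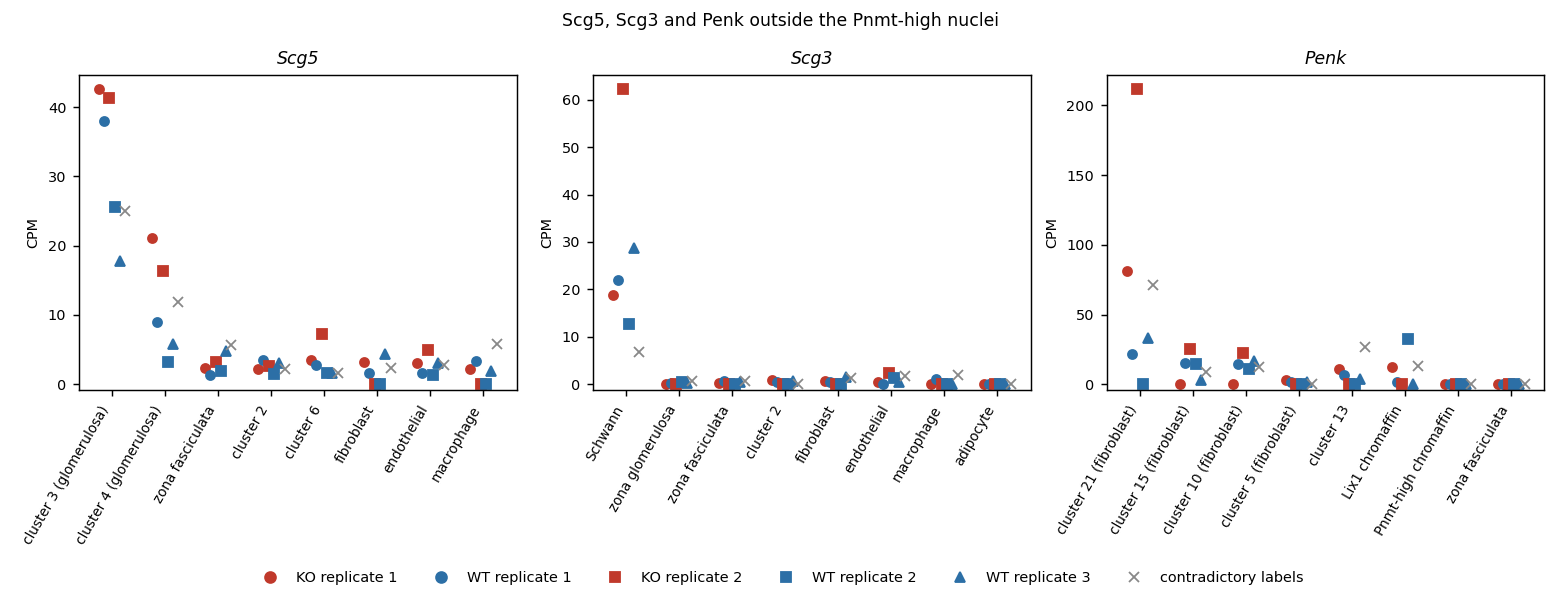
Levels in CPM of Scg5, Scg3 and Penk in classes and clusters of nuclei; each point is 1 library (red KO, blue WT, grey cross the unassigned library). Scg5 is highest in the Cyp11b2 cluster of the zona glomerulosa-like class, between 17.7 and 42.6 CPM; Scg3 lies between 6.8 and 62.2 CPM in Schwann nuclei, and Penk is highest by its mean in the fibroblast cluster of 145 nuclei.

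Chromaffin-like nuclei fell into 5 sub-clusters, made without the 10 genes. The largest, called Pnmt-high here (866 nuclei), took 50.7% to 66.8% of the chromaffin-like nuclei of a library and had 235 to 956 CPM of Pnmt. The next (394 nuclei), called the Lix1 sub-cluster after a gene at 429 to 615 CPM in it and 6.3 to 26.1 CPM in the other, had 12.5 to 46.8 CPM of Pnmt. Scn1a, Vldlr, Syt16, Hhip and Slc35f1 led the Pnmt-high nuclei, and Myl1, Sgpp2, Cdh20, Ptprz1 and Brinp3 led the Lix1 nuclei. All 10 of these were used to form the clusters and describe them only.

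The 10 genes split between the sub-clusters. Vgf, Npy, Scg2 and Chga were higher in Pnmt-high nuclei, Gal was higher in Lix1 nuclei, and Penk UMIs were found in Lix1 nuclei and not in Pnmt-high nuclei. Chgb, Scg3, Scg5 and Resp18 did not pass the test. The counts were 4 higher and 1 lower of 9 genes tested, while 10.0% of the 8740 genes tested were higher and 9.23% lower (19.2% in either direction). Over the 6996 genes not used to cluster, 12.6% were called, 6.86% higher and 5.72% lower. The median log2 fold was 0.08 over the 9 genes and 0.00 over all genes.

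Vgf had the largest fold among the 9 genes tested. In Pnmt-high nuclei it stood at 21.1 and 97.2 CPM in KO, at 14.6, 34.1 and 23.0 in WT and at 104 in the unassigned library, and in Lix1 nuclei at 1.4 and 26.0, then 0.7, 0 and 0, then 1.7. In each library the Pnmt-high value was the higher, and in Lix1 nuclei only KO replicate 2 had more than 1.7 CPM. The difference was 10.5-fold (log2 3.40 ± 0.47, adjusted p = 5.7e-06 by edgeR's quasi-likelihood test, n = 5). The Lix1 side of this fold rests on 6 UMIs, 4 of them from KO replicate 2, against 159 UMIs in Pnmt-high nuclei. After thinning, 4.08% ± 3.57 of Pnmt-high and 0.515% ± 0.731 of Lix1 nuclei held Vgf (SD, n = 5). The Pnmt-high share was the higher in each KO and WT library except KO replicate 1 (1.35% against 1.56%, from 2 and 1 nuclei).

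Npy followed. Pnmt-high nuclei stood at 281 and 1020 CPM in KO, at 394, 725 and 380 in WT and at 1036 in the unassigned library, against 172 and 312, then 140, 122 and 135, then 242 in Lix1 nuclei. Npy was thus higher in Pnmt-high nuclei of every library, by 2.83-fold in the fit (log2 1.5 ± 0.17, adjusted p = 5.2e-07 by edgeR's quasi-likelihood test, n = 5). After thinning, 37.9% ± 15.8 of Pnmt-high and 12.7% ± 13.8 of Lix1 nuclei held it (SD, n = 5).

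Scg2 differed by less. It stood at 496 and 432 CPM in KO, at 435, 234 and 207 in WT and at 375 in the unassigned library in Pnmt-high nuclei, and at 309 and 188, then 221, 112 and 200, then 167 in Lix1 nuclei. The gap was present in each library but nearly closed in WT replicate 3, and the fit gave 1.67-fold (log2 0.74 ± 0.14, adjusted p = 4.0e-04 by edgeR's quasi-likelihood test, n = 5). Chga stood at 1922 and 1587 CPM in KO, at 1957, 1626 and 1352 in WT and at 1912 in the unassigned library, against 1596 and 864, then 1490, 1077 and 1423, then 1672. It was higher in Pnmt-high nuclei in 4 of 5 libraries, by 1.31-fold (log2 0.39 ± 0.12, adjusted p = 0.0306 by the same test). This call was lost with DESeq2 (adjusted p = 0.105), with doublets kept (0.0841), and without KO replicate 2 (0.161), WT replicate 1 (0.0813) or WT replicate 2 (0.144).

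Gal ran the other way. In Lix1 nuclei it stood at 23.5 and 58.4 CPM in KO, at 33.6, 51.5 and 44.8 in WT and at 56.3 in the unassigned library, and in Pnmt-high nuclei at 8.6 and 49.8, then 7.3, 6.8 and 8.6, then 31.3. These values rest on 17, 9, 51, 11, 15 and 34 UMIs in Lix1 nuclei and on 13, 21, 17, 4, 12 and 65 in Pnmt-high nuclei. The gap was wide in the 3 WT libraries and narrow in KO replicate 2, where the 95% counting limits of the Lix1 level were 26.7 to 111 CPM. The fit gave 3.43-fold higher in Lix1 nuclei (log2 -1.78 ± 0.31 for Pnmt-high over Lix1, adjusted p = 1.1e-04 by edgeR's quasi-likelihood test, n = 5, the same direction in 5 of 5 libraries).

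Penk was too low for the test in this comparison. Pnmt-high nuclei of the 5 libraries held 0 Penk UMIs of 6237062, which allows a level of up to 0.481 CPM by counting error, and Lix1 nuclei held 19 of 2942094, or 6.46 CPM. Against the floor of 3 UMIs taken over the group, the pooled Lix1 level was 13.4-fold higher. The error of the Lix1 level is not part of this ratio. The ratio was 7.09-fold without KO replicate 1 and 8.28-fold without WT replicate 2. Over all 6 libraries its 27 UMIs in Lix1 nuclei came from 10 of 394 nuclei. Single nuclei held up to 8 of the 9 UMIs of KO replicate 1, all 7 of WT replicate 2 and 5 of the 8 of the unassigned library. KO replicate 2 and WT replicate 3 held none, so the level describes a few nuclei rather than the sub-cluster.

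The values of the 4 genes that did not pass differed in direction between libraries. Chgb stood at 1334 and 2289 CPM in KO and at 1567, 2680 and 1000 in WT in Pnmt-high nuclei, against 1880 and 1987, then 1612, 1630 and 1456 in Lix1 nuclei. Its values spread more in Pnmt-high than in Lix1 nuclei, and the log2 difference was -0.05 ± 0.15 (adjusted p = 0.893 by edgeR's quasi-likelihood test, n = 5). Scg3 stood at 65.3 and 59.3 CPM in KO and at 58.1, 25.6 and 41.0 in WT in Pnmt-high nuclei, against 69.2 and 39.0, then 50.7, 74.9 and 71.8 in Lix1 nuclei. It was lower in Pnmt-high nuclei of KO replicate 1 and WT replicates 2 and 3 and higher in KO replicate 2 and WT replicate 1. The log2 differences were -0.26 ± 0.21 for Scg3, -0.12 ± 0.12 for Scg5 and 0.08 ± 0.21 for Resp18. The 3 smaller sub-clusters held 138, 27 and 22 nuclei, and in the first of them Vgf stood at 8.42 ± 2.85 and Gal at 15.4 ± 10.9 CPM (SD, n = 5). These 2 levels rest on 7 and 10 UMIs over the 5 libraries, with 1 to 3 and 1 to 4 UMIs per library.

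Summed markers of other cells differed between the sub-clusters. Over the 6 libraries the summed level of 12 endothelial markers was 463 to 834 CPM in Lix1 and 117 to 282 in Pnmt-high nuclei, that of 11 pericyte or smooth muscle markers 71.8 to 201 and 11.1 to 16.6, and that of 13 ganglion neuron markers 2669 to 3564 and 1385 to 2783. Single markers carried these sums. Over the KO and WT libraries pooled, Cyyr1 stood at 454 CPM in Lix1 and 61.7 in Pnmt-high nuclei, while 9 of the 12 endothelial markers were higher in Pnmt-high nuclei, among them Flt1 (14.4 against 6.80 CPM) and Emcn (12.5 against 6.80). Of the second list, Rgs5 stood at 77.5 CPM in Lix1 and 2.89 in Pnmt-high nuclei and every other marker below 8 CPM in both. Of the third, Chrna7 (2262 against 1119 CPM), Elavl4 (530 against 149) and Rbfox3 (180.5 against 7.21) were higher in Lix1 nuclei, and Isl1 (122 against 3.40) and Ntrk2 (211.5 against 3.74) were higher in Pnmt-high nuclei. Markers with 0 UMIs in these Lix1 nuclei included Cdh5, Cspg4, Higd1b, Prph and Slc18a3. The part of these cells in the differences was not tested.

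**Figure D3:**
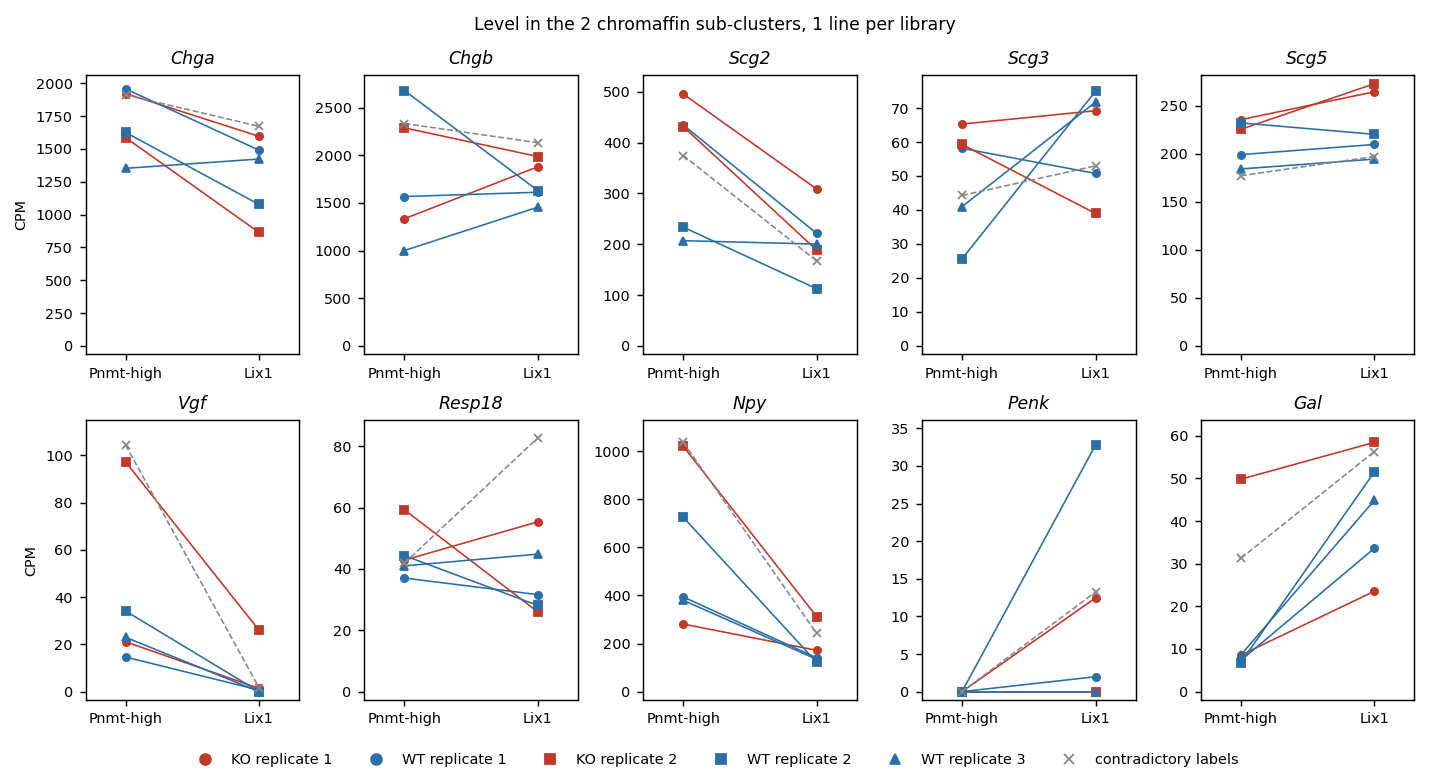
Level in CPM of each gene in the Pnmt-high and the Lix1 sub-cluster; each line joins the values of 1 library (red KO, blue WT, grey dashed the unassigned library), and each panel has its own scale from 0. Lines for Vgf, Npy and Scg2 fall from Pnmt-high to Lix1 in each library, those for Gal rise, and those for Chgb cross.

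The genes around the 10 in the secretory pathway were read from lists chosen by function. Of 12 genes of prohormone processing, 10 were tested between the sub-clusters, and 3 were higher in Pnmt-high nuclei and 0 lower, beside 10.0% and 9.23% of all genes tested. They were the convertase Pcsk1 (519 ± 202 against 144 ± 41.4 CPM, SD, n = 5; log2 1.61 ± 0.20), carboxypeptidase E, Cpe (277 ± 134 against 103 ± 30.7 CPM; 1.34 ± 0.17) and the convertase Pcsk2 (0.52 ± 0.16). Pcsk1 and Cpe were higher in Pnmt-high nuclei in 5 of 5 libraries. The median log2 fold of the list was 0.27. The call of Pcsk2 (adjusted p = 0.0198 by edgeR's quasi-likelihood test) was lost with DESeq2 (0.122), with doublets kept (0.123) and without any 1 of the WT libraries (0.0747 to 0.127).

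Of 15 genes of the granule membrane and granule formation, 13 were tested, with 3 higher and 3 lower in Pnmt-high nuclei and a median of -0.01. The higher ones were the granule membrane proteins Ptprn2 (0.56) and Ptprn (0.48) and the granule GTPase Rab27a (0.35). The calls of Ptprn and Rab27a were lost with DESeq2 (adjusted p = 0.0681 and 0.119) and without WT replicate 1 (0.0601 and 0.138), WT replicate 2 (0.109 and 0.162) or KO replicate 2 (0.0516 and 0.0667), and that of Rab27a also without KO replicate 1 (0.0928), with doublets kept (0.0948) and with the unassigned library added (0.0744). The lower ones were the priming factor Cadps (1068 ± 138 against 2051 ± 430 CPM; -0.94), the Rab27 effector Sytl4 (-1.26) and cytochrome b561, Cyb561 (-0.62), which returns electrons to the granule for dopamine hydroxylation. Cadps was lower in Pnmt-high nuclei in 5 of 5 libraries and Sytl4 in 4 of 5. Of 26 other peptide precursors 2 were tested and neither passed.

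Of 12 genes for receptors of the peptides, 4 were tested between the sub-clusters, 3 were lower in Pnmt-high nuclei and 0 higher, and 8 were too low to be tested. The delta opioid receptor gene Oprd1 had 36.3 ± 7.94 CPM in Lix1 and 1.34 ± 1.84 in Pnmt-high nuclei (SD, n = 5; log2 -4.93 ± 0.50), and the mu opioid receptor gene Oprm1 had 26.3 ± 19.1 and 1.79 ± 1.14 (-3.93 ± 0.54). Both bind enkephalins, the products of Penk. Npy2r, a receptor of neuropeptide Y, had 94.6 ± 24.3 and 22.1 ± 5.64 CPM (-2.10 ± 0.22), the reverse of Npy itself. All 3 were higher in Lix1 nuclei in 5 of 5 libraries. Adcyap1r1, the receptor of the splanchnic transmitter PACAP, did not pass, with 228 ± 40.5 and 197 ± 37.2 CPM.

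**Figure D4:**
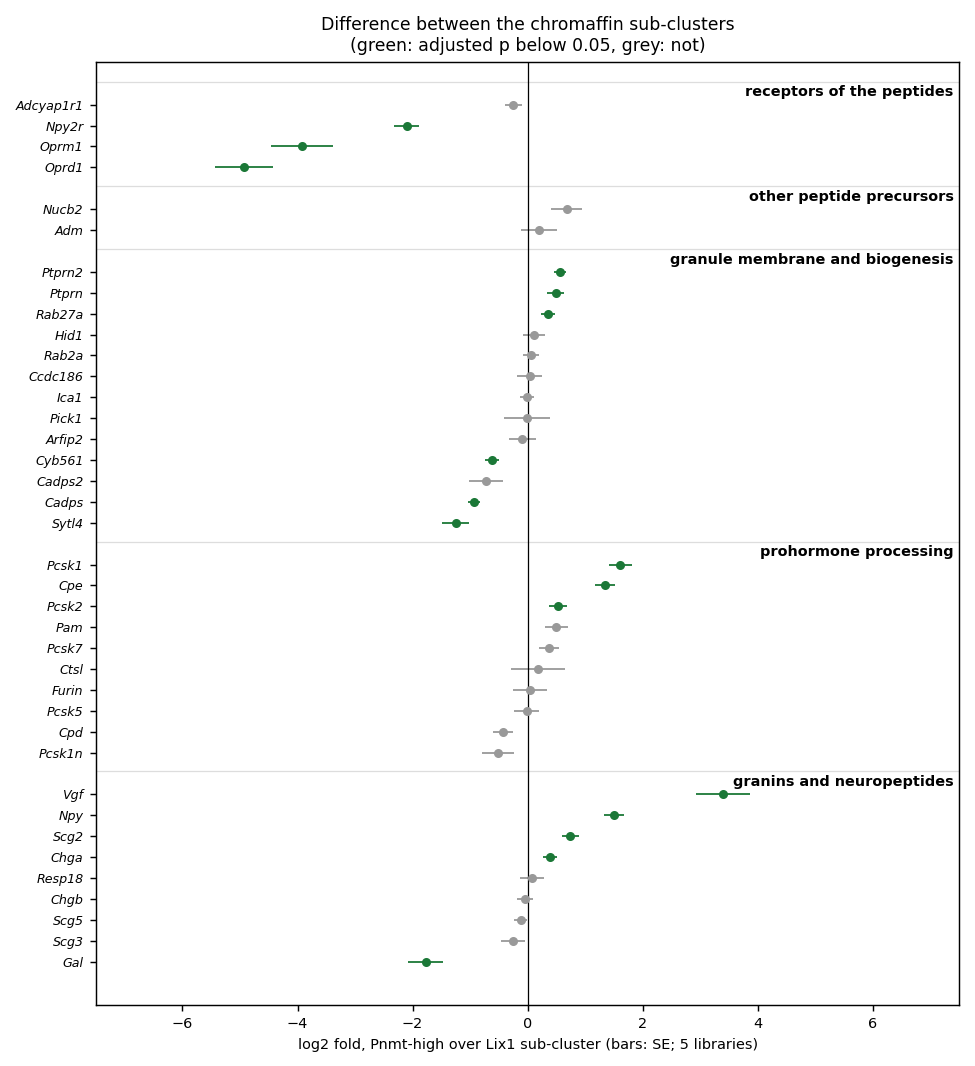
Log2 fold of Pnmt-high over Lix1 nuclei for the 9 tested genes and for the tested genes of 4 lists; points are estimates, bars are SE over 5 libraries, green points had an adjusted p below 0.05. Vgf lies farthest to the right among the 9 genes at 3.40 and Gal farthest to the left at -1.78; Oprd1 and Oprm1 lie lowest of all at -4.93 and -3.93.

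Set against all other nuclei of the gland, the same lists were mixed. Of the 12 processing genes, 6 were higher in chromaffin-like nuclei and 5 lower, where 28.0% of all genes tested were higher and 31.7% lower, and their median log2 fold was 0.40, against -0.05 over all genes. Pcsk1 (7.996) and its inhibitor precursor Pcsk1n (5.16), Pcsk2 (4.12) and the glutaminyl cyclase Qpct (2.5) were higher, and Pcsk5 (-5.02) and Pcsk6 (-2.23) were lower. Cpe was lower in chromaffin-like nuclei (-1.23), while it differed between the sub-clusters as given above. Of the 15 granule genes, 8 were higher and 2 lower in this comparison (median 0.80), led by Cadps (6.54), Ptprn (5.54), Rab27a (4.96) and Ptprn2 (4.84). Of the 12 receptors 6 were tested, and Oprd1 (6.82), Adcyap1r1 (5.80), Npy2r (2.98), Oprm1 (2.89) and Npy1r (2.18) were higher and C3ar1 (-2.98) lower. The call of Npy1r was lost with the unassigned library added (adjusted p = 0.0813 by edgeR's quasi-likelihood test). Those of Pick1, among the higher granule genes, and Pcsk7, among the lower processing genes, did not hold in every run with 1 library left out. Their highest adjusted p was 0.129 and 0.131 by the same test.

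Few other peptide precursors were found in chromaffin-like nuclei. Of 26 listed, 18 had 0 UMIs among the 10518105 of the 5 libraries, which allows up to 0.285 CPM each by counting error, and 4 had 10 or more UMIs. Cartpt (log2 5.72), the adrenomedullin gene Adm (3.44) and Nucb2 (1.497), the precursor of nesfatin, were higher than in other nuclei. Npy4r, Galr2 and Oprk1 had 0 UMIs in chromaffin-like nuclei.

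The comparison of the series, KO against WT, was made in chromaffin-like nuclei with the gene annotation used for counting as a batch term. No gene passed the test: 0.00% of 11046 genes were called by edgeR's quasi-likelihood test, with 577 at an unadjusted p below 0.05, and DESeq2 called 11. The 10 genes were therefore 0 of 9 tested. Their log2 folds had a median of 0.36, against 0.02 over all genes, and 8 of 9 were above 0. Leaving out 1 library moved the number of genes called over a range of 0 to 104.

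Vgf and Scg2 had the smallest unadjusted p. For Vgf, whose values per library are given above, the log2 fold was 1.25 ± 0.34 (unadjusted p = 0.0044, adjusted p = 0.792 by edgeR's quasi-likelihood test, n = 2 KO and 3 WT libraries), and 0.54 without KO replicate 2. KO replicate 1, at 13.6 CPM, lay above WT replicate 1 of the same annotation, at 9.0, and below WT replicates 2 and 3. For Scg2 the log2 fold was 0.52 ± 0.17 (unadjusted p = 0.0119, adjusted p = 0.917 by the same test). Within each annotation KO was the higher, 420 against 355 CPM and 360 against 213 and 202.

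The other genes had larger errors relative to their folds. The log2 folds were 0.72 ± 0.40 for Gal, 0.40 ± 0.30 for Npy and 0.36 ± 0.21 for Resp18. They were 0.20 ± 0.16 for Scg5, 0.19 ± 0.27 for Chgb, 0.14 ± 0.20 for Scg3 and -0.02 ± 0.15 for Chga. Resp18 and Scg5, like Scg2, had both KO libraries above the 3 WT libraries, so 3 of the 9 genes tested, as did 12.5% of the 11046 genes. None of the 3 passed the test. The folds of Npy and Gal rested on KO replicate 2: without it they were -0.37 and -0.22, and that of Chgb was -0.12. Penk was too low to be tested. In the unassigned library 3 of the 10 genes, Vgf, Npy and Gal, lay above all WT libraries with their exact 95% Poisson intervals apart, as did 2.02% of the 11046 genes.

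Other values that did not overlap between KO and WT are given beside these, and 2212 of the 11046 genes did not overlap in 1 direction or the other. Gm42418, a gene that overlaps ribosomal RNA repeats, stood at 12339 and 9746 CPM in chromaffin-like nuclei of KO libraries, at 5372, 5554 and 2709 in WT and at 2362 in the unassigned library. The sum of 12 capsule or fibroblast markers was 41.8 and 51.8 CPM in KO against 29.2, 36.2 and 31.4 in WT, and that of 11 pericyte or smooth muscle markers 39.3 and 59.0 in KO against 37.8, 34.1 and 23.2 in WT. These were 2 of the 3 lists without overlap among 17 marker lists of other cell types, the third being kidney tubule, at 4.0 CPM or less in each library. Their part in the values of the 10 genes was not tested.

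**Figure D5:**
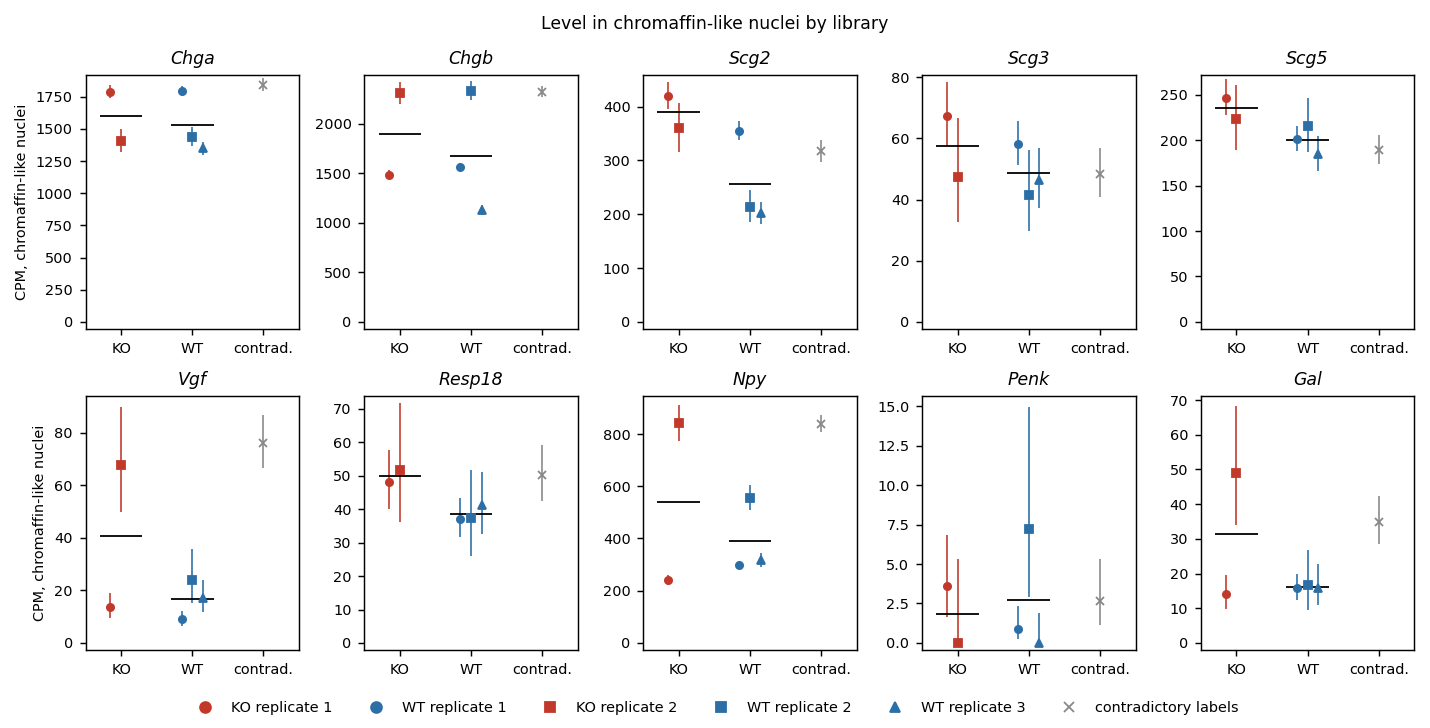
Level in CPM of each gene in chromaffin-like nuclei by library, with exact 95% Poisson intervals that cover counting error only; black lines are group means, and each panel has its own scale from 0. Scg2, Resp18 and Scg5 have both KO libraries above the WT libraries. In Vgf, Npy and Gal, KO replicate 2 (red square) and the unassigned library lie above all WT libraries, and KO replicate 1 does not.

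Within the sub-clusters the picture was similar. In Pnmt-high nuclei 2 of 9990 genes were called (0.0200%), none of the 10, and the log2 folds of KO over WT were 1.26 ± 0.36 for Vgf (adjusted p = 0.772 by edgeR's quasi-likelihood test) and 1.57 ± 0.57 for Gal (0.951). Both passed the test without KO replicate 1 (adjusted p = 0.0171 and 0.0321) and without WT replicate 1 (0.0146 and 0.0266), which are the libraries of 1 annotation. In either case the batch term takes up the library that remains of that annotation, so that KO replicate 2 alone is set against WT replicates 2 and 3, and is assumed to vary as they do. In Lix1 nuclei 0 of 5758 genes were called (0.00%), with 262 at an unadjusted p below 0.05. There Npy had 0.76 ± 0.25 (unadjusted p = 0.0067, adjusted p = 0.616 by the same test), at 172 and 312 CPM in KO and 122 to 140 in WT.

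The difference of the KO effect between the sub-clusters was tested as an interaction. It called 8 of 8740 genes (0.0915%) and none of the 10. The smallest unadjusted p among them was that of Gal, with a log2 difference of 1.495 ± 0.58 (unadjusted p = 0.0159, adjusted p = 0.84 by edgeR's quasi-likelihood test). That of Vgf, -2.31 ± 1.29, rests on 6 UMIs in Lix1 nuclei. The amidating enzyme Pam, of the processing list, was among the 8, and its values are given in the closing section.

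In the other 12 classes with enough nuclei, none of the 32 values of the 10 genes that could be tested passed, while 0.112% of all gene and class values did. Chga was tested in 9 of them, and its log2 fold of KO over WT was above 0 in all 9, from 0.26 to 1.57. At an unadjusted p below 0.05 were 7 of the 32 values, which share the same 5 libraries, and 5.08% of all gene and class values. Of the 7, 5 were of Chga (adipocyte-like 1.57, cluster 6 0.98, cluster 2 0.97, zona glomerulosa-like 0.87, capsule or fibroblast-like 0.83). The other 2 were of Scg2 (1.26) and Scg5 (0.55) in zona glomerulosa-like nuclei. In chromaffin-like nuclei the fold of Chga was -0.02. The other classes with at least 300 nuclei held Chga at 1.49% to 2.30% of its chromaffin-like level. The cause of these folds was not tested.

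Genes most like each of the 10 across the gland were found by Pearson's r of log2(CPM + 1) over 17 class means, among 12170 genes, as a description. The points share libraries, and chromaffin sub-clusters count among them. Chga and Chgb were closest to Snap25, a fusion protein (0.987 and 0.986), to Mgat4c (0.986 and 0.992) and to each other (0.985). Npy was closest to Th, tyrosine hydroxylase (0.961), and Scg2 to Chrna3, a subunit of the nicotinic receptor (0.981). Scg3 was closest to Nrg3 (0.968), Scg5 to Atcay (0.930), Resp18 to Cacng2 (0.980), Gal to St8sia3 (0.977) and Vgf to Gm32647 (0.912).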

How the data were processed

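Adrenal nuclei of 6 libraries were used. The authors deposited counts of UMIs for each gene and barcode from Cell Ranger (4.0.0 with 32285 genes for KO and WT replicate 1, 3.1.0 with 31053 for the others, per the file headers). Seurat and mm10 are named in the submitters' processing notes. The sources used here do not say whether intronic reads were counted.

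Of 21724 barcodes, 48 were removed for under 300 genes or a mitochondrial share from 5% up, and 641 doublets were marked with scrublet at 0.8% per 1000 barcodes and removed (its automatic threshold marked 595). Nuclei were clustered with scanpy 1.11.5 (2000 variable genes, 30 components, Harmony by library, 20 neighbours, Leiden 0.8, and 0.3 within chromaffin-like nuclei) into 24 clusters. Names needed 3 markers of a list that passed a log2 fold of 1 and a share of 10%; clusters 2, 6, 12 and 13 stayed unnamed. UMIs were summed per library and class and tested two-sided with edgeR 4.0.16 (quasi-likelihood test, TMM, filterByExpr, Benjamini-Hochberg over all genes tested, 0.05), with the library as block between classes and the annotation as batch term between genotypes. DESeq2 1.42.0 was an alternative. Classes needed 20 nuclei in each of the 5 grouped libraries. A fold is edgeR's estimate. Simulated counts tested the scripts. For chromaffin-like against other nuclei, 96.9% of changes of log2 size 2 and 69.8% of size 1 were recovered, with 10 false calls (13893 genes). For the sub-clusters 98.9% and 72.6% were recovered, with 5 false calls (8403 genes). For KO against WT in chromaffin-like nuclei the shares were 86.6% and 44.2%, with 6 false calls (10706 genes). In Pnmt-high nuclei they were 79.4% and 20.2%, with 9 false calls (9644 genes).

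Named were the 10 genes; list genes past the threshold, up to 6 per list by fold; for each sub-cluster the 5 largest folds at 50 CPM or more; and the nearest genes by r among genes at 20 CPM or more in 1 class. Marker genes, Tmem127 and Gm42418 were named beside results after their values were seen. The 10 genes and the lists were chosen with earlier results of these data known. Intervals and floors cover counting error only. The unassigned library entered clustering and no test except the alternatives that name it. Not every marker gene is reported by name here.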

Additional observations from a re-analysis of the deposited data

Results flagged for a closer look

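The KO effect on Pam, the enzyme that amidates peptides such as neuropeptide Y, differed between the chromaffin sub-clusters. The log2 difference, Pnmt-high minus Lix1, was -1.43 ± 0.26 (adjusted p = 0.016 by edgeR's quasi-likelihood test of the interaction, n = 5 libraries). In Pnmt-high nuclei Pam stood at 482 and 811 CPM in KO against 648, 1051 and 1748 in WT. In Lix1 nuclei it stood at 599 and 1046 CPM in KO against 459, 417 and 640 in WT. In the unassigned library it stood at 2195 and 876 CPM. Leaving out 1 library gave differences from -1.79 to -1.21, with adjusted p of 0.42 without KO replicate 1, 0.164 without WT replicate 2 and 0.0774 without WT replicate 3.

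In chromaffin-like nuclei of the unassigned library, 3 of the 10 genes had a lower limit of the exact 95% Poisson interval above the upper limit of each WT library, as did 2.02% of the 11046 genes tested for KO against WT. Vgf stood at 76.1 CPM (interval 66.6 to 86.7), against at most 23.8 in WT (upper limit 35.7). Npy stood at 839 CPM (807 to 873), against at most 555 (upper limit 604), and Gal at 34.9 CPM (28.5 to 42.3), against at most 16.6 (upper limit 26.9). The intervals do not cover the spread between animals, and the labels put this library in no group.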

How the results depend on the processing

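Between chromaffin-like and other nuclei, the 9 calls held under every alternative run, with 9 to 9 genes and 7282 to 8571 genes in all when 1 library was left out. Between the sub-clusters, Vgf, Npy, Scg2 and Gal kept their calls under every alternative run. Leaving out 1 library gave 4 to 5 of the 10 genes and 1207 to 1680 genes in all, and Penk was called without KO replicate 2 and with no filter on low counts. The log2 difference of Chgb, main value below 0, ran from -0.23 to 0.080 with 1 library left out, and was 0.0011 with the 10 genes among the clustering genes, 0.017 with the unassigned library and 0.017 in finer sub-clusters. That of Resp18 ran from -0.024 to 0.29, and was -0.13 with the unassigned library. None of these values passed.

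In KO against WT, 11 genes were called with DESeq2 and 103 with no filter (88 higher, 15 lower), 1 of them among the 10 genes (Vgf, log2 1.198, adjusted p = 0.0262, edgeR's quasi-likelihood test). Leaving out 1 library gave 0 to 104 genes in all chromaffin-like nuclei, 1 to 101 in Pnmt-high nuclei, 0 to 39 in Lix1 nuclei and 1 to 39 for the interaction. In chromaffin-like nuclei the log2 fold then ran from -0.052 to 0.00082 for Chga, -0.12 to 0.45 for Chgb, -0.37 to 0.93 for Npy and -0.22 to 1.56 for Gal, and that of Chga was 0.024 with no batch term and 0.18 with the unassigned library as KO. In Pnmt-high nuclei Npy ran from -0.53 to 0.89, in Lix1 nuclei Gal from -0.51 to 0.31, and in the interaction Npy from -1.15 to 0.011 and Scg2 from -0.14 to 0.57. The lowest Chgb, Npy and Gal values in chromaffin-like nuclei were those without KO replicate 2. Without 1 KO library the other is assumed to vary as the WT libraries do. The cause was not tested.

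Without thinning, the shares of chromaffin-like nuclei with a UMI were 95.02% for Chga, 93.8% for Chgb, 69.1% for Scg2, 30.4% for Scg3, 65.5% for Scg5, 10.2% for Vgf, 25.5% for Resp18, 70.3% for Npy, 0.534% for Penk and 9.39% for Gal. The depth of KO replicate 2, with a median of 2299 UMIs per chromaffin-like nucleus, limits the low genes. No paired analysis was possible because the replicate numbers follow the order of the samples and pair nothing across groups.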
